A study of Mus musculus with 17 samples.

Results

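The 79 genes described here encode proteins of the extracellular matrix and of cell adhesion, among the 9030 genes named on a 2-colour cDNA array of Afp mutant mouse liver. They were chosen by a rule on their symbols, which was set with earlier results of these data known. The 38 matrix genes were the collagens, the laminin chains, the TIMPs (tissue inhibitors of metalloproteinases), Fn1, Dcn and Bgn. The 41 adhesion genes were the integrin subunits other than Itga2b, the cadherins and claudins with a number in their symbol, Alcam and Pecam1. The symbol pattern also took in Itgb1bp2 and Itgb3bp, which encode integrin-binding proteins and no integrin. The genes were read by 133 of the array's 20794 probes. For 10 of them (Alcam, Cdh6, Cdh7, Cdh17, Cdh22, Cldn7, Itga4, Itga5, Lamb1 and Lamb3) no fetal row could be named, so 79 members were tested in adults and 69 in embryos.

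Liver RNA of single mutant mice, which the labels call AFP1 kO, was hybridised together with pooled RNA of wild-type livers. The adult group held 6 mutant males aged 17 weeks, each compared with RNA pooled from 6 wild-type males of that age. Adult animals 1, 2, 3, 4 and 6 had an array in each dye orientation, and animal 5 had 1 array with the mutant in Cy5. The fetal group held 6 mutant embryos, 3 male (1, 2 and 3) and 3 female (4, 5 and 6), each on 1 array with the mutant in Cy5. The labels give these embryos as embryonic day 7.5, a day that was not checked, and call the fetal pool male on 2 arrays and female on 4. The labels do not describe the allele further. Wild-type mice entered only as pools, and a test of a ratio against 0 therefore lacks their spread.

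The extracellular matrix is a meshwork of collagens, laminins, fibronectin and proteoglycans that surrounds cells and holds them in place. Fibrillar collagens give tensile strength to the interstitial matrix, and type IV collagen and laminins form sheets called basement membranes. Cells grip this matrix through integrins, which are pairs of an alpha and a beta subunit, and grip each other through cadherins and through the claudins of tight junctions. In liver, stellate cells are a main source of fibrillar collagen, hepatocytes secrete fibronectin and carry E-cadherin, and sinusoidal endothelium lies on a sparse matrix without a continuous basement membrane.

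Values below are mutant over pool on the log2 scale, with the SD over animals after the ± sign, and a gene is the mean of its probes. Ratios carry no level, so neither the labelled tissue nor the presence of a member could be checked from them, and fewer cells of a type cannot be told apart from less RNA per cell. The arrays carried 20078 to 20697 values each, and precision is limited by there being 6 animals an age. Afp, the targeted gene, stood at -8.40 ± 0.23 in the embryos, between -8.79 and -8.11, but at -0.03 ± 0.19 in the adults, where the ratio leaves the knockout unchecked. The direction of the adult Cy3 arrays (those where the mutant carried Cy3) was inferred from the values. The fetal names rest on a shift of 11 rows that was also inferred. The members' own 89 pairs of probes for the same gene did not single out that shift, with a mean correlation across embryos of 0.079, the rank being 7 of the 121 shifts tried. Over all 4690 such pairs on the array the shift ranked 1 of 121, at a Spearman correlation of 0.0887, against -0.0032 as deposited.

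No matrix or adhesion gene passed limma's test at an adjusted p under 0.05 in any of the 4 comparisons. In the adults 0 of 79 members passed, where 0% of all features did, and 5 (6.33%) had an unadjusted p under 0.05, against 7.71% of all features. In the embryos 0 of 69 passed, against 0.151% of all features, and 11 (15.9%) had an unadjusted p under 0.05, against 20.8%. The same sign in every animal was seen for 8 of 79 members in the adults, 2 above and 6 below 0, where 6.33% of all features had it. In the embryos it was seen for 8 of 69, 3 above and 5 below 0, where 15.8% of all features had it. By this measure the members' share lay above that of all features in the adults and below it in the embryos. The members' shares of unadjusted p under 0.05 thus lay near or below those of the array as a whole in both ages. The medians were small as well. They were -0.03 over the matrix genes and 0.01 over the adhesion genes in the adults (0.01 over all features), and 0.01 for each in the embryos (0.0046 over all features).

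**Figure D1:**
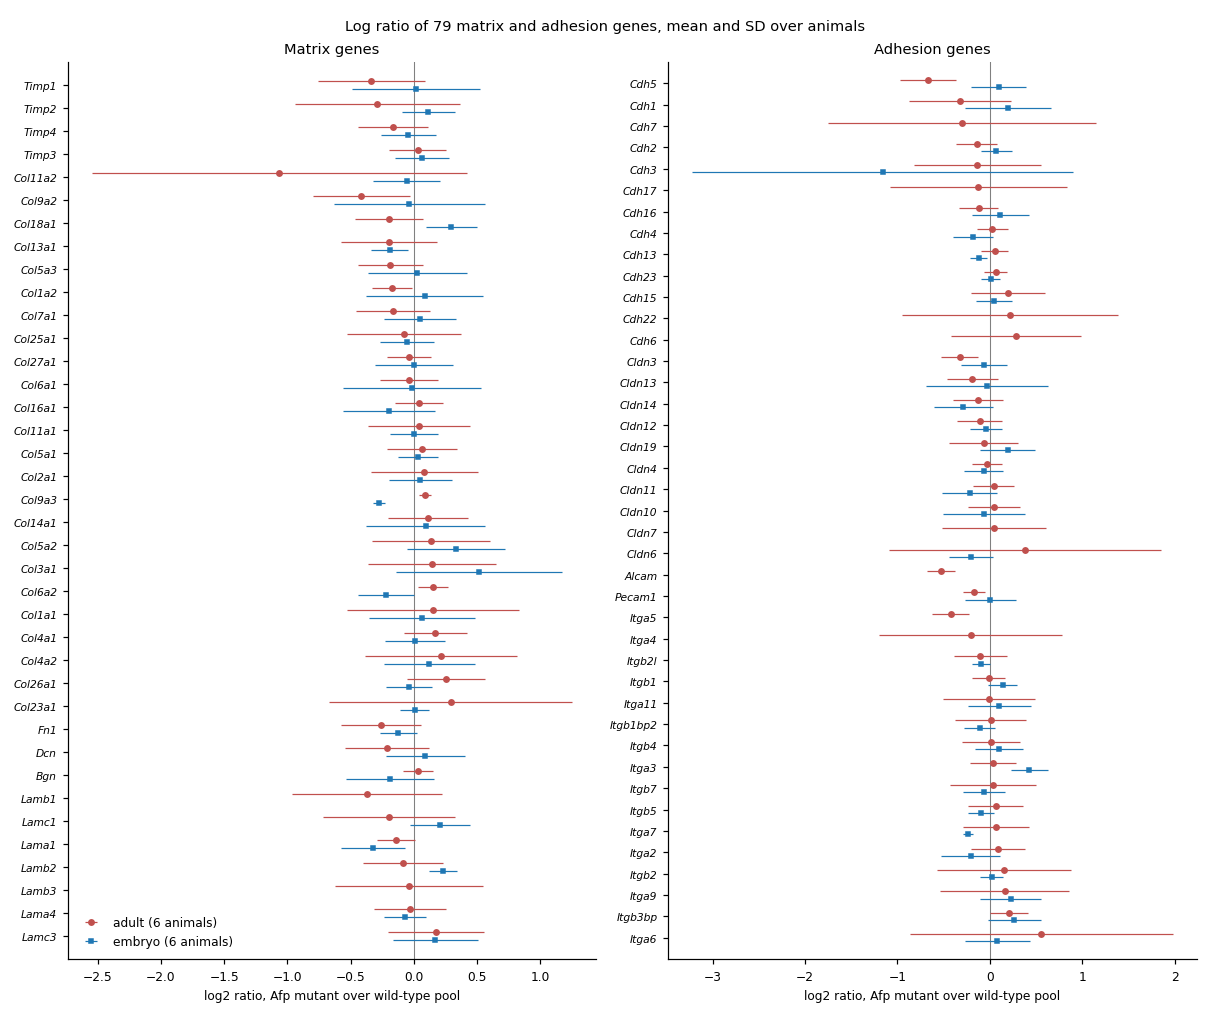
Log2 ratio of mutant over wild-type pool (horizontal axis) of each matrix gene (left) and adhesion gene (right), as the mean (point) and SD (bar) over 6 adult animals (red circles) and 6 embryos (blue squares), with values beyond 10 in size left out. Most bars cross 0, and 10 genes have no embryo value.

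The interstitial collagens differed more between embryos than between embryos and pool. Col3a1, the chain of type III collagen, averaged 0.14 ± 0.50 in the adults and 0.51 ± 0.65 in the embryos (n = 6 each, adjusted p = 0.817 and 0.242). Its embryo values were 0.96, -0.41, 1.48, 0.40, 0.52 and 0.14 in embryos 1 to 6. Embryos 3 and 1 were the highest, and embryo 2 was the only one below 0. Col1a1 and Col1a2, the chains of type I collagen, the main collagen of fibrils, were also highest in embryos 3 and 1. Col1a1 stood at 0.50, -0.30, 0.65, -0.18, 0.02 and -0.31. Col1a2 stood at 0.45, -0.32, 0.81, 0.01, -0.37 and -0.06 once 2 readings of 1 of its 4 probes, 16.8 in embryo 1 and 16.3 in embryo 2, were left out. With those readings kept, as in the test, Col1a2 averaged 1.46 ± 2.16 (adjusted p = 0.289), and without them 0.08 ± 0.46. Embryos 3 and 1 were thus high in all of these genes, and the group means lay within the spread between embryos.

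Some other members that work with the collagen fibril, picked after the values were seen, were high in the same embryos. Col5a2, a chain of type V collagen, which helps fibrils to form, stood at 0.66, 0.20, 0.90, 0.17, 0.24 and -0.18 in embryos 1 to 6. Col6a1, of the type VI collagen that makes beaded filaments, stood at 0.27, -0.36, 0.97, -0.28, -0.49 and -0.19. Dcn, which encodes decorin, a small proteoglycan that binds fibrils, stood at 0.42, -0.37, 0.40, 0.08, -0.16 and 0.17. Embryos 1 and 3 held the highest values of each. Serpinh1, the chaperone of collagen in the endoplasmic reticulum and no member of the set, read 0.37, -0.17, 0.80, -0.27, -0.10 and 0.23. The list of collagen processing genes that holds Serpinh1 was not high in embryos 1 and 3. Its medians over 19 genes were -0.02, -0.14, -0.05, 0.01, -0.06 and 0.13 in embryos 1 to 6. A list of elastic fibre genes, named here after its values were seen, was highest in embryos 3 and 1. Its medians over 12 genes were 0.20, 0.015, 0.37, -0.0075, 0.07 and 0.10 in embryos 1 to 6. Over the 9 fibrillar collagens the median was 0.35 in embryo 1 and 0.46 in embryo 3, and it lay between -0.09 and 0.02 in the other embryos. Over all features the medians of the 6 embryos lay between -0.01 and 0.02.

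Col3a1 was taken as the point of comparison after these values were seen, so its likeness to other genes is a description over 6 arrays that share a pool. Pearson's r with Col3a1 was over 0.8 for 6 of 35 other matrix genes and for 0 of 31 adhesion genes, against 1.65% of 16111 features. The 6 were Timp2 (r = 0.93), which encodes an inhibitor of matrix metalloproteinases, Col1a1 (0.93), Col1a2 (0.86), Col6a1 (0.83), Dcn (0.83) and Col5a2 (0.82). Over the 35 matrix genes the median r was 0.23. Other matrix genes did not follow Col3a1, with r at 0.32 for Col6a2, 0.08 for Bgn, -0.13 for Col11a1, -0.16 for Col2a1 and -0.77 for Fn1. With the fetal rows named as deposited, 0 of 36 matrix genes had an r over 0.8. Markers of stellate cells and fibroblasts did not set embryos 1 and 3 apart in the same way. The median of their 8 genes was 0.07 in embryo 1 and 0.09 in embryo 3, and 0.38 in embryo 6, and their part in the collagen values was not tested.

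The bases before the transcription start of 3 of these collagen genes are shown, since these genes were high in the same embryos. The sequences are from RefSeq (build GRCm38.p6), cover 150 bases that end just before the start, and have the letters of any motif found in capitals. The windows are chr6:4505468-4505617 on the plus strand for Col1a2, chr1:45311388-45311537 on the plus strand for Col3a1 and chr10:76726045-76726194 on the minus strand for Col6a1.
Col1a2: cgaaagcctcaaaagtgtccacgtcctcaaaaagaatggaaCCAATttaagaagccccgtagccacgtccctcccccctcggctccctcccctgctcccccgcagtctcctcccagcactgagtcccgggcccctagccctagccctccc
Col3a1: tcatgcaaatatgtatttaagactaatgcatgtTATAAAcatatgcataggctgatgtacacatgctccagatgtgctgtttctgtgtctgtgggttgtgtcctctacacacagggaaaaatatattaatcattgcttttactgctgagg
Col6a1: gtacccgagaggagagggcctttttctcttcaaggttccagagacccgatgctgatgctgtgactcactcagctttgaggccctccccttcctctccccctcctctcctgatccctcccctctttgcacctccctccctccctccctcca
The search, on both strands, was for the CCAAT box, for the TATA box as TATAAA, and for the GC box as GGGCGG. No matches overlapped in these windows. Col1a2 held CCAAT at bases 109 to 105 before the start, and Col3a1 held TATAAA at bases 117 to 112. Col6a1 held none of the 3. These are matches of letters alone, and their use as boxes was not tested. Of 32851 promoter windows of the same length, 24.5% held CCAAT, 7.57% TATAAA and 28.6% GGGCGG, so each match is one that many promoters share. A promoter entry was found for 52 of the 79 members.

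**Figure D2:**
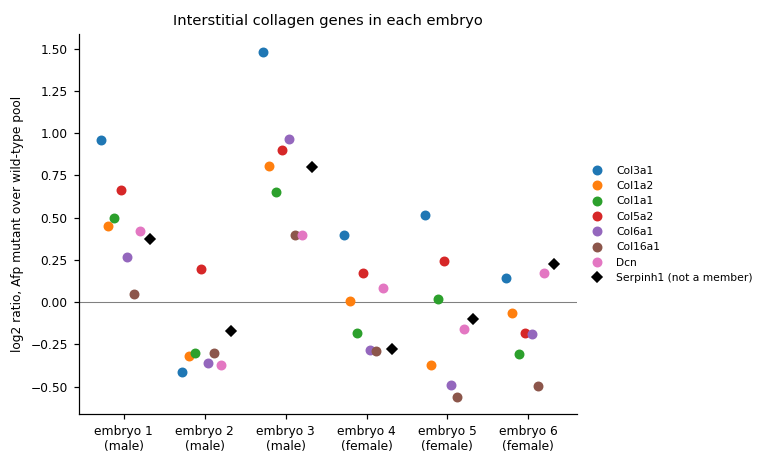
Log2 ratio of mutant over wild-type pool (vertical axis) of 6 collagen genes, Dcn and, as black diamonds, the collagen chaperone Serpinh1 in each of the 6 embryos, with values beyond 10 in size left out. Embryos 1 and 3 hold the highest values, with Col3a1 at 0.96 and 1.48, and in embryo 2 every gene shown except Col5a2 lies below 0.

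Among the other collagens, Col9a3 stood out in the embryos by its narrow spread. It encodes a chain of type IX collagen, which coats fibrils and is best known from cartilage. Its values were -0.20, -0.25, -0.25, -0.30, -0.34 and -0.30 in embryos 1 to 6, below 0 in every embryo, at a mean of -0.27 ± 0.05 (n = 6, adjusted p = 0.0891). In the adults it averaged 0.09 ± 0.05, above 0 in 6 of 6 animals (adjusted p = 0.748). Of its 3 probes, probe 8268 averaged -0.54 in the embryos, against -0.09 and -0.20 for the others, and tested on its own that probe passed with an adjusted p of 0.0384. Its partner chain Col9a2 averaged -0.41 ± 0.38 in the adults, the only matrix gene there with an unadjusted p under 0.05 (adjusted p = 0.639), and -0.04 ± 0.60 in the embryos. The 2 chains thus did not lie on the same side of 0 in the adults. Col6a2, a chain of type VI collagen, averaged 0.15 ± 0.12 in the adults, above 0 in 6 of 6 animals (adjusted p = 0.671), and -0.22 ± 0.22 in the embryos (adjusted p = 0.230).

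Basement membrane collagens gave no call either. Col18a1, whose protein releases the fragment endostatin, averaged -0.20 ± 0.27 in the adults and 0.30 ± 0.20 in the embryos (adjusted p = 0.673 and 0.130), with embryo values of 0.20, 0.20, -0.02, 0.49, 0.45 and 0.47. Col13a1, a collagen that spans the cell membrane, averaged -0.19 ± 0.15 in the embryos and lay below 0 in 6 of 6 (adjusted p = 0.204). Col4a1 and Col4a2, the chains of the most widespread type IV collagen, averaged 0.01 ± 0.24 and 0.12 ± 0.36 in the embryos. In the adults Col4a2 averaged 0.21 ± 0.60, and this mean joined arrays of opposite sign. It was 0.99 ± 0.40 on the 6 arrays with the mutant in Cy5, above 0 on all of them, and -0.93 ± 0.31 on the 5 arrays with the mutant in Cy3, below 0 on all of them. Col4a1 averaged 0.53 ± 1.03 in the adults, or 0.17 ± 0.25 without a reading of 17.4 on the Cy5 array of animal 6.

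The laminins held 3 of the 8 embryo genes with the same sign in every embryo. Laminins are cross-shaped proteins of an alpha, a beta and a gamma chain that start the assembly of basement membranes. Lamb2, a beta chain, averaged -0.09 ± 0.32 in the adults and 0.23 ± 0.11 in the embryos, with embryo values of 0.26, 0.23, 0.12, 0.34, 0.35 and 0.08 (adjusted p = 0.845 and 0.130). Lama1, the alpha chain of the earliest embryonic laminin, averaged -0.14 ± 0.15 in the adults and -0.32 ± 0.25 in the embryos, between -0.78 in embryo 3 and -0.07 in embryo 1 (adjusted p = 0.687 and 0.137). Lamc1, the most common gamma chain, averaged 0.21 ± 0.24 in the embryos, where embryo 1 at 0.66 stood above the rest at 0.00 (from 0.0023) to 0.24 (adjusted p = 0.274). In the adults Lamc1 averaged 0.33 ± 1.17, or -0.19 ± 0.52 without a reading of 16.9 on the Cy5 array of animal 3. Lamb1, measured in the adults alone, averaged -0.37 ± 0.59. The laminin chains thus lay on either side of 0 in both ages.

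Fibronectin and the small proteoglycans lay close to the pool. Fn1, which encodes the fibronectin that hepatocytes secrete into plasma and that cells lay down in matrix, averaged -0.26 ± 0.31 in the adults, below 0 in every animal but animal 1 (adjusted p = 0.652). In the embryos it averaged -0.12 ± 0.15, below 0 in 6 of 6, with embryo 3 lowest at -0.41 (adjusted p = 0.376). Dcn averaged -0.21 ± 0.33 in the adults and 0.09 ± 0.31 in the embryos. Bgn, which encodes biglycan, a close relative of decorin, averaged 0.04 ± 0.12 in the adults and -0.19 ± 0.35 in the embryos, where embryo 1 read -0.81. Among the TIMPs, the adult means were -0.33 ± 0.43 for Timp1, -0.29 ± 0.65 for Timp2, 0.03 ± 0.23 for Timp3 and -0.17 ± 0.28 for Timp4. Their embryo means lay between -0.04 and 0.12. No TIMP kept its sign over all animals of an age, and the smallest adjusted p was 0.650 in the adults and 0.489 in the embryos.

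The integrin subunits gave the smallest p of the 69 members in the embryos. Itga3, the alpha subunit of a laminin receptor, averaged 0.04 ± 0.25 in the adults and 0.43 ± 0.20 in the embryos (adjusted p = 0.931 and 0.0881). Its embryo values of 0.15, 0.32, 0.72, 0.33, 0.50 and 0.53 all lay above 0. Itga7, the alpha subunit of the laminin receptor of muscle, averaged 0.07 ± 0.36 in the adults and -0.24 ± 0.05 in the embryos, with embryo values of -0.28, -0.21, -0.17, -0.24, -0.32 and -0.20 (adjusted p = 0.888 and 0.104). These laminin receptor subunits lay on opposite sides of 0 in the embryos. Itgb1, the beta subunit shared by most matrix receptors and read by 6 probes, averaged -0.01 ± 0.18 in the adults and 0.14 ± 0.16 in the embryos. Itga5, the alpha subunit of the main fibronectin receptor, was measured in the adults alone and averaged -0.42 ± 0.20. Its adult values of -0.15, -0.45, -0.57, -0.62, -0.54 and -0.20 all lay below 0 (adjusted p = 0.639). Itgb3bp, which encodes a centromere protein that also binds an integrin tail, averaged 0.20 ± 0.21 in the adults and 0.27 ± 0.29 in the embryos.

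In the tests against 0, Cdh5 in the adults was the only cadherin with an unadjusted p under 0.05. Cdh5 encodes VE-cadherin, which joins endothelial cells to each other. Its adult values were -0.24, -0.31, -0.89, -0.84, -0.90 and -0.80 in animals 1 to 6, at a mean of -0.67 ± 0.30 (adjusted p = 0.639), and its embryo mean was 0.09 ± 0.30. Animals 1 and 2 stood closer to 0 than the others. Cdh1, the E-cadherin of hepatocytes and other epithelia, averaged -0.32 ± 0.55 in the adults and 0.19 ± 0.46 in the embryos. Cdh2, the N-cadherin that hepatocytes also carry, averaged 0.34 ± 1.12 in the adults and 0.07 ± 0.17 in the embryos, and its adult mean was -0.14 ± 0.22 without a reading of 16.7 on the Cy5 array of animal 4. Cdh3, the P-cadherin of basal epithelia, had embryo readings from -4.78 to 17.1, so its embryo mean of 1.89 ± 7.69 carries no information on a shift. Cadherins as a group lay evenly about 0 in the adults, with 7 of 13 above it.

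The claudins, which seal the tight junctions that keep bile apart from blood, had 8 of 9 means below 0 in the embryos and 6 of 10 in the adults. Over all features 8456 of 17242 means lay below 0 in the embryos and 8204 of 17039 in the adults. Cldn14 was lowest in the embryos at -0.29 ± 0.32, with embryo 5 alone above 0 at 0.18 (adjusted p = 0.226). Cldn3, a claudin of hepatocyte and bile duct junctions, averaged -0.33 ± 0.20 in the adults, with values of -0.21, -0.46, -0.26, -0.10, -0.67 and -0.27 (adjusted p = 0.639), and -0.06 ± 0.25 in the embryos. Its adult mean was -0.51 ± 0.42 on the Cy5 arrays and -0.05 ± 0.26 on the Cy3 arrays. The largest embryo mean among claudins was 0.19 ± 0.29, for Cldn19, the only one above 0.

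Alcam, an immunoglobulin adhesion protein known from leukocytes and from bile duct and progenitor cells, had the smallest p of the 79 members in the adults with the Cy3 arrays read in their inferred direction. It was measured in the adults alone, by 1 probe. Its values in animals 1 to 6 were -0.44, -0.44, -0.81, -0.44, -0.57 and -0.44, with a mean of -0.53 ± 0.15, and 6 of 6 lay below 0 (adjusted p = 0.639). Alcam also lay below 0 on all 11 arrays, at -0.58 ± 0.44 with the mutant in Cy5 and -0.45 ± 0.27 with the mutant in Cy3. With the Cy3 arrays turned in sign, its mean was -0.15 (adjusted p = 0.492). Pecam1, found on endothelium, platelets and leukocytes, averaged -0.17 ± 0.12 in the adults, below 0 in 6 of 6 animals (adjusted p = 0.652), and 0.01 ± 0.28 in the embryos. Its adult mean likewise joined arrays of opposite sign, at 0.23 ± 0.29 on the Cy5 arrays and -0.68 ± 0.36 on the Cy3 arrays.

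The adult means thus differed in how far the dye orientations agreed. Among 75 members with enough values, the mean over Cy5 arrays and the mean over Cy3 arrays had the same sign for 27 (36%), of which 8 lay above and 19 below 0, against 30.3% of 16580 features. With the Cy3 arrays turned, the sign was the same for the other 48 (64%), against 69.7% of all features. Beside Alcam, Cdh5 kept its sign, at -0.81 ± 0.42 on the Cy5 arrays and -0.45 ± 0.43 on the Cy3 arrays, below 0 on 6 of 6 and 4 of 5. Itga5 did so too, at -0.44 ± 0.24 and -0.37 ± 0.25. In contrast, Itgb4, the beta subunit of hemidesmosomes, stood at 0.69 ± 0.47 on the Cy5 arrays and -0.87 ± 0.40 on the Cy3 arrays. Itga9, an alpha subunit that binds tenascin and osteopontin, stood at 0.89 ± 0.66 and -0.95 ± 0.30 in that order of dyes. The adult ratios of all these genes therefore depend on the inferred direction of the Cy3 arrays. With those arrays turned, Cdh5 averaged -0.29 and Itga5 -0.11 in the adults (adjusted p = 0.249 and 0.520). Also with them turned, Col4a2, Itgb4, Itga9, Itga3 and Itgb2l passed in the adults, at 0.99, 0.74, 0.95, 0.50 and -0.48, where 1760 of 17039 features passed.

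**Figure D3:**
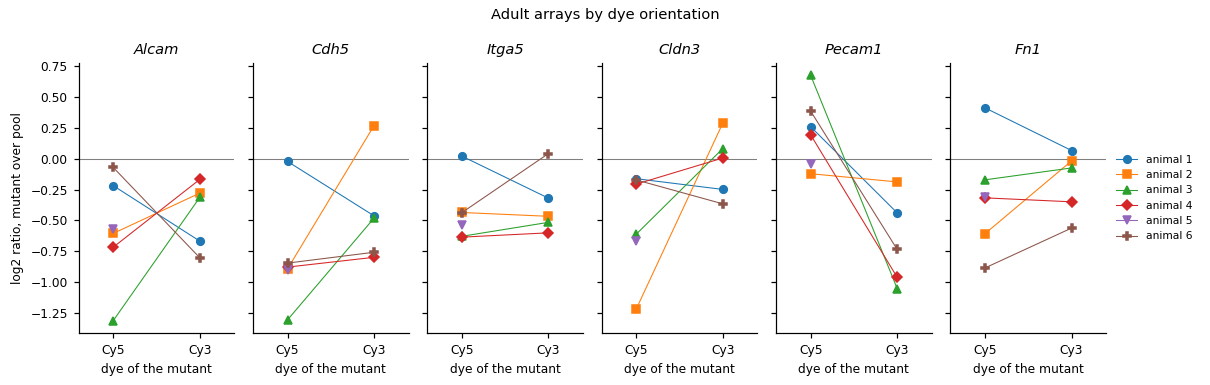
Log2 ratio of mutant over wild-type pool (vertical axis) of 6 members in each adult animal, with the mutant in Cy5 (left) or in Cy3 (right) and lines joining the arrays of an animal. Alcam lies below 0 on all 11 arrays, and Pecam1 averages 0.23 on the Cy5 arrays and -0.68 on the Cy3 arrays.

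The adult members with the smallest p were set beside markers of the cells that carry them. Of 11 endothelial markers, 4 lay above and 7 below 0 in the adults, with a median of -0.08 and animal medians from -0.23 to 0.08. Among these markers, Tie1, an endothelial receptor, ranged from -0.59 to 0.34 over the adults, Stab1 from -0.29 to 0.67 and Emcn from -0.21 to 1.26. Esam, an adhesion protein of endothelium taken from another list, averaged -0.29 ± 0.12. Hepatocyte markers lay lower, with 10 of 11 below 0, a median of -0.45 (from -0.445) and animal medians from -0.80 (from -0.795) in animal 4 to 0.20 in animal 1. In the embryos the hepatocyte markers lay the other way, with 8 of 10 above 0 and a median of 0.24. None of these markers passed after adjustment, and their part in the values of Cdh5, Pecam1 or Cldn3 was not tested.

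In the embryos mutant and Cy5 coincide on every array, so a dye effect and a mutant effect cannot be told apart there. The adult dye profile was an animal's Cy5 value minus its Cy3 value, divided by 2 and averaged over the 5 animals with both. It measures a dye effect only if the inferred direction of the Cy3 arrays holds. With those arrays turned, the same number is the adult mean of mutant over pool in these animals. The shift of fetal names was itself chosen where the fetal mean followed this profile best over all features, so likeness between them is partly built in by the naming. Across 69 members the embryo mean and this profile had a Pearson correlation of 0.52 and a Spearman correlation of 0.58, as a description over genes that share arrays. The sign was the same for 49 of 69 (71.0%), against 64.6% of 16493 features with a Pearson correlation of 0.33. The correlation was 0.41 over matrix genes and 0.59 over adhesion genes. For the genes with the smallest p in the embryos, the profile was 0.51 for Itga3, -0.25 for Col9a3, -0.36 for Itga7 and -0.41 for Col13a1, in each case with the sign of the embryo mean and about its size or more. For Lamb2 it was -0.37, opposite to the embryo mean of 0.23, and for Col18a1 it was 0.12 and for Lama1 -0.14, smaller than their means. Among the claudins the profile had the sign of the embryo mean for Cldn3, Cldn6, Cldn11, Cldn12, Cldn13, Cldn14 and Cldn19. For Cldn4 and Cldn10 it had the opposite sign.

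**Figure D4:**
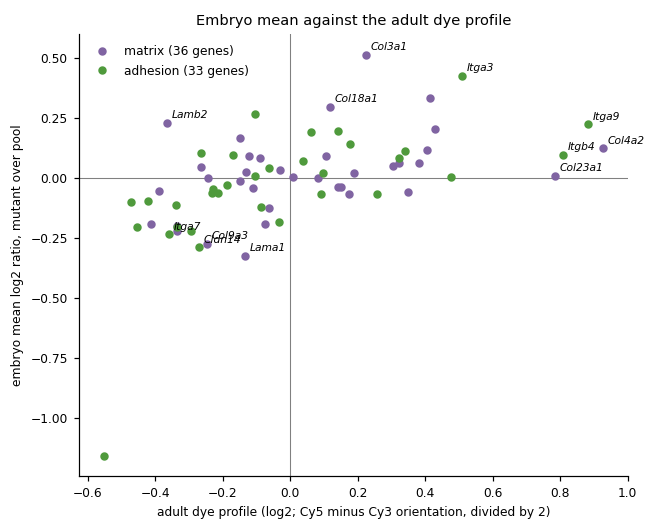
Mean log2 ratio of mutant over pool in 6 embryos (vertical axis) against the adult dye profile (horizontal axis, log2, Cy5 minus Cy3 orientation divided by 2) for 36 matrix and 33 adhesion genes, with values beyond 10 in size left out. Points run from lower left to upper right (Pearson 0.52), while Lamb2 has a positive embryo mean (0.23) and a negative profile (-0.37). The unlabelled point at the bottom is Cdh3.

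The comparison of ages asked where the ratio of mutant over pool differed between adult males and embryos on arrays of the same dye layout. Pool and age change together in it. None of 69 members passed, against 0.141% of all features, and 10 (14.5%) had an unadjusted p under 0.05, against 20.2%. Cdh5 had the smallest p of the members, at -0.81 ± 0.42 against 0.09 ± 0.30 (n = 6 each), a difference of -0.90 (adjusted p = 0.0722). Its adult Cy5 values were -0.02, -0.89, -1.31, -0.88, -0.90 and -0.85 in animals 1 to 6, and its embryo values were -0.19, -0.22, 0.60 (from 0.595), 0.08, 0.07 and 0.23. Adult animal 1 was the only adult within the range of the embryos. Cdh5 had 2 probes in the adults and 1 in the embryos. With the shared probe alone, an alternative added after the data were seen, the difference was -0.69 (adjusted p = 0.107).

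Lamb2 was the only 1 of 69 members whose groups did not overlap, against 2.29% of all features. It stood at -0.39 ± 0.28 in the adults and 0.23 ± 0.11 in the embryos, a difference of -0.62 (adjusted p = 0.0723). Every adult Cy5 value, from -0.82 to -0.16, lay below every embryo value. Col4a2 stood at 0.99 ± 0.40 in the adults and 0.12 ± 0.36 in the embryos, a difference of 0.86 (adjusted p = 0.0779). Itgb4 differed by 0.59 (0.69 ± 0.47 in the adults, 0.10 ± 0.26 in the embryos, adjusted p = 0.155). Itgb2l, related to the beta subunit of leukocyte integrins, differed by -0.40 (-0.50 ± 0.25 in the adults, -0.10 ± 0.10 in the embryos, adjusted p = 0.132). In Col4a2, Itgb4 and Itgb2l the adult Cy5 mean was close to the dye profile, which was 0.93, 0.81 and -0.47. The embryo arrays of the same layout did not show values of that size. Lamb2 likewise had an adult Cy5 mean close to its dye profile of -0.37, with an embryo mean on the other side of 0. The profile is computed in part from the same Cy5 arrays, so closeness is built in wherever the adult mean over both dyes is near 0. That mean was 0.21 for Col4a2, 0.01 for Itgb4 and -0.10 for Itgb2l. Over both dyes the adult mean of Lamb2 was -0.09. Adult animal 1 decided whether members passed. Without it, Cdh5 at -1.06, Col4a2 at 1.0, Itga9 at 0.90, Itgb4 at 0.74 and Lamb2 at -0.66 passed, where 1224 of 16136 features did.

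**Figure D5:**
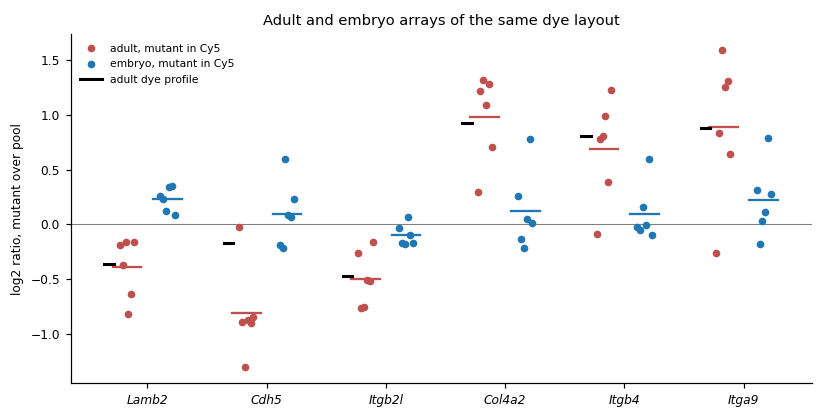
Log2 ratio of mutant over pool (vertical axis) of 6 members on the 6 adult Cy5 arrays (red, left of each pair) and the 6 embryo arrays (blue, right), with means as coloured bars and the adult dye profile as a black mark. Lamb2 is the only gene whose adult points, from -0.82 to -0.16, all lie below its embryo points.

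The female embryos were set against the male embryos, with 3 of each. Sex is largely confounded with the label of the pool, which is called female for embryos 3 to 6. None of 69 members passed, against 0.0116% of all features. An unadjusted p under 0.05 was seen for 5 (7.25%), all of them collagens, against 3.18% of all features, and the sexes did not overlap for 11, against 9.59%. Col9a2 stood at -0.45 ± 0.59 in females (from -0.455) and 0.38 ± 0.15 in males, with values of -0.01, -0.24 and -1.12 in females and 0.48, 0.21 and 0.45 in males. Col18a1 stood at 0.47 ± 0.02 in females and 0.13 ± 0.13 in males. Col26a1 stood at 0.12 ± 0.03 in females and -0.20 ± 0.09 in males, and Col16a1 at -0.45 ± 0.14 in females and 0.05 ± 0.35 in males. The adjusted p was 0.998 for each of these. Col1a2, at -0.14 ± 0.20 in females and 3.06 ± 1.99 in males, rests on the 2 readings above 16 in males 1 and 2. Without embryo 3, the male with neither reading, Col1a2 passed at -4.34 (adjusted p = 0.0155). Among the other collagens and the adhesion genes whose sexes did not overlap, Col4a1 stood at 0.18 ± 0.21 in females and -0.17 ± 0.05 in males. Cldn4, a tight junction claudin, stood at 0.10 ± 0.10 in females and -0.23 ± 0.14 in males. Itga11, the alpha subunit of a collagen receptor, stood at -0.12 ± 0.38 in females and 0.33 ± 0.02 in males. Males differed widely among themselves in Col3a1 and Col1a1, where embryos 1 and 3 were the highest and embryo 2 the lowest or close to it.

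Genes that work with these proteins were looked at in 11 lists of matrix, protease and junction genes, with lists of 8 cell types beside them. The 11 lists held 133 genes of the array that are no members, and 0 passed in any comparison. In the adults 11 of 133 (8.27%) had an unadjusted p under 0.05 and in the embryos 28 of 119 (23.5%), against 7.71% and 20.8% over all features. The lowest p among the embryos' matrix partners belonged to Pcolce2, an enhancer of procollagen cleavage, at -0.36 ± 0.14 (adjusted p = 0.0886). Tjp3, a scaffold of tight junctions, averaged -0.34 ± 0.14 and Ncan, the proteoglycan neurocan, 0.45 ± 0.20, with the same sign in 6 of 6 embryos for Tjp3 and in the 5 embryos with a value for Ncan (adjusted p = 0.0891 and 0.0906). Sdc1, the main syndecan of hepatocytes, averaged -0.23 ± 0.08 (adjusted p = 0.115). The adult dye profile was -0.16 for Pcolce2, -0.24 for Tjp3, 0.93 for Ncan and -0.14 for Sdc1.

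In the adults, Gjb1, the gap junction protein of hepatocytes, averaged -0.38 ± 0.31 and the desmosome plaque gene Pkp4 -0.29 ± 0.13, each below 0 in 6 of 6 (adjusted p = 0.639). Adamts1, a protease of proteoglycans, averaged 0.22 ± 0.07. Between the ages, Vcam1, an adhesion protein of activated endothelium, differed by 1.11 and Mmp2, a gelatinase, by 0.87, with groups that did not overlap (adjusted p = 0.0868 and 0.0724). Their adult dye profiles were 0.94 and 0.74. Esam differed by -0.59 in the direction of Cdh5, while Jam2, from the same list of adhesion genes, differed by 0.56 (adjusted p = 0.0781 for each). Of 9 endothelial markers, 4 lay above and 5 below 0, with Stab1 at 0.50 and Fcgr2b at -1.02 (adjusted p = 0.127 and 0.0749). The collagen processing list had 10 of 18 genes above 0 in the embryos and 6 of 19 in the adults. The elastic fibre list had 8 of 12 above 0 in both ages, and the TGF-beta pathway list had 6 of 9 in the embryos and 4 of 13 in the adults.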

How the data were processed

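The deposited table holds log2 ratios for 20794 rows and 17 arrays, made by the authors. The log base was inferred. Image analysis and normalization: not given in the sources used here. Per the labels' protocols, RNA was labelled indirectly with Cy3 and Cy5. Names came from the platform annotation. Fetal names were moved by 11 rows for probes up to 20000, where the fetal mean correlated best with the adult dye profile (Spearman 0.375, against 0.018 as deposited). Arrays with the mutant in Cy3 were read as mutant over pool, since of their values beyond 10 in size 140 were negative and 0 positive, against 0 negative and 445 positive on the others. Dye-swap pairs correlated at a median of -0.286.

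Arrays of an animal were averaged first. A feature needed a value in 4 of 6 animals, or in 2 of each sex and 4 in all. Ratios were tested against 0, and ages and sexes as 2 groups, with limma 3.58.1 (lmFit and eBayes) in R 4.3.3, two-sided, with Benjamini-Hochberg adjustment over all features and a threshold of 0.05. The fits were tested on simulated data. The members, the related lists and the alternatives were chosen with earlier results of these data known. Genes were named where they passed, were among the 8 largest of each sign that held in every animal (or with groups apart), had the 5 smallest p, or were known for liver matrix or junctions. Itga9, Cdh3, Cldn19, Itgb3bp, Col16a1, Timp4 and the per-embryo collagen set were named after their values were seen. Alternatives covered filters, centring, probes, extreme values, row naming, dye handling and left-out animals. The numbers in sample titles name no shared animal and pair nothing.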

Additional observations from a re-analysis of the deposited data

Results flagged for a closer look

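In 19 of the 148 groups of 6 animals looked at (79 members in adults, 69 in embryos), 1 animal stood apart from the other 5 by Dixon's test at its critical value for groups of 6, and chance alone flags about 1 in 20 groups. Of the 19, 9 were adult and 10 were embryo groups. Values are log2 ratios of mutant over pool.

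Adult animal 5, the one with a single array, stood apart in 4 genes. It was high for Col1a1 at 1.51, against at most 0.01 in the other animals, for Col2a1 at 0.91, against at most 0.05, and for Itga6 at 3.40 (from 3.395), against at most 0.30, and low for Itgb2 at -1.22, against at least 0.13. Animal 3 stood apart for Alcam at -0.81 and Cdh17 at 1.77. Animal 6 stood apart for Timp2 at -1.58. Cdh2 in animal 4 at 2.59 and Col4a1 in animal 6 at 2.59 each hold 1 reading above 16.

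Among the embryos, embryo 1 stood apart for Col5a1 at 0.35, Lamc1 at 0.66 and Timp1 at -0.94. Embryo 3 did so for Fn1 at -0.41. Embryo 5 did so for Cldn3 at -0.56, Itgb4 at 0.60 and, through 1 reading, Cdh3 at 17.1. Embryo 6 did so for Col7a1 at 0.58, Lamc3 at 0.83 and Col23a1 at -0.22. The causes were not tested.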

How the results depend on the processing

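The count of members that passed stayed at 0 under the other filters, with arrays centred, with the median of probes, without values beyond 10, without embryos 5 and 6 and with animals of both dyes only. It changed as follows, and the causes were not tested. In the embryos 1 member passed with each probe on its own (Col9a3), and 15 with the adult dye profile subtracted (6 higher, 9 lower), where 4986 of 16440 features passed. Under that subtraction Lamc1 reversed to -0.93, a value that rests on 1 extreme adult reading of 16.9. In the adults 5 passed with the Cy3 arrays turned (1760 features), 3 with Cy5 arrays alone (1106 features) and 3 with Cy3 arrays alone (699 features). For adult minus fetal, 7 passed with fetal rows as deposited (1579 features) and 0 with adult means over both dyes. A replicate block on the title numbers, which mark no shared animals, left 0 members and 10 features, against 23.

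Leaving out each animal in turn left 0 members in both ages, 0 to 5 for adult minus fetal (5 without adult animal 1) and 0 to 1 for female minus male embryos (Col1a2 at -4.34 without embryo 3, adjusted p = 0.0155). Over all features, leaving out an embryo gave 2 to 5 calls in the embryos, against 26, and 4 to 78 for adult minus fetal, against 23. Leaving out an adult gave 5 to 1224 for adult minus fetal. In the embryos calls numbered 83 without values beyond 10, 61 with a value required in every animal, 43 with the median of probes, 88 with each probe on its own and 2 without embryos 5 and 6. For adult minus fetal they numbered 42, 36, 24, 24 and 4 in that order, and 9 with adult means over both dyes, and for female minus male 0, 0, 2, 2 and 12, against 2. The last of these leaves 1 female, assumed to vary like the males. The adults gave 0 by limma under each of these filters, with 1314 features at an unadjusted p under 0.05. Depth is not known from ratios.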
